A study of Homo sapiens with 6 samples.

Results

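The RNAs described here are 193 long intergenic non-coding RNAs, those transcripts with a symbol of LINC and 5 digits whose mean level over 6 libraries was at least 0.5 CPM, a read count scaled to a library of fixed size. They were taken from 2126 such symbols in a table of 59653 gene symbols, and 1030 of those had at least 1 count in some library. Apart from some LINC symbols that are not reported here, the members were chosen by abundance, their mean CPM over both groups. Their levels are therefore given as a description, while the difference between the groups played no part in that threshold. Nearest to the threshold were LINC01213 at 0.502, LINC00310 at 0.505 and LINC01137 at 0.505 CPM inside it, and LINC02036 at 0.496, LINC01772 at 0.494 and LINC00634 at 0.486 CPM outside it. All 193 also had enough counts to be among the 17592 genes tested. In 20 of them 1 group alone had a mean under 0.5 CPM, so that their entry rested on the other group. Of these, 4 passed the test: LINC01213 and LINC01571 were higher, and LINC00994 and LINC01411 lower, after SOX2 siRNA.

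The libraries were made from messenger RNA of PA1, an established human ovarian teratocarcinoma line of wildtype genotype: 3 from cells given a control small interfering RNA (siRNA) and 3 from cells given siRNA against the pluripotency transcription factor SOX2. Cells grown in adherent culture were transfected, moved after 24 h to poly-HEMA plates, whose polymer coat keeps cells from attaching, and taken for RNA after a further 72 h of growth without anchorage. Per the labels there were 2 siRNAs against SOX2, and whether a library received one or both is not given. Nothing in the labels says that the 3 libraries of a group came from separate cultures, so p-values measure the spread between these libraries, which may be technical, in 1 cell line.

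Long intergenic non-coding RNAs are transcribed from DNA between protein-coding genes, mostly by RNA polymerase II, and are capped, spliced and often polyadenylated like messenger RNAs without encoding a known protein. Most are scarcer than messenger RNAs and more restricted to particular tissues. Some regulate a gene beside them, some are the precursors of small or circular RNAs, and for most no function is known; a LINC number is a serial name given to those without one. Pluripotent and teratocarcinoma cells are known to express many, some next to genes of pluripotency and early lineage choice.

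Libraries held between 25152313 and 32753184 counts, and 3 counts, the smallest amount distinguished from none, equalled 0.0916 to 0.119 CPM. Such floors cover counting error only, because reads without molecular identifiers are not independent molecules. Counts of SOX2 itself were 8093, 6647 and 7396 in the controls, in order of replicate, against 1564, 1776 and 1513 after SOX2 siRNA, which is 255 ± 10.1 and 52.4 ± 2.21 CPM (SD, n = 3). On the log2 scale SOX2 changed by -2.28 with an SE of 0.0437 (adjusted p = 5.91e-16, by edgeR's quasi-likelihood test with the method of Benjamini and Hochberg over all tested genes, as throughout). Of the markers of pluripotent teratocarcinoma, POU5F1 stood at 301 and 339 CPM and LIN28A at 705 and 1147 CPM in control and SOX2 siRNA libraries. In the same order LIN28B was at 239 and 359 CPM and SALL4 at 151 and 144 CPM. Low in both groups were DPPA4 (3.04 and 2.34 CPM), L1TD1 (1.79 and 1.64 CPM) and TDGF1, which had 0 to 3 counts. L1TD1 also varied between replicates, with 88, 47 and 24 counts in control and 58, 31 and 61 in SOX2 siRNA libraries. Markers of other cell types were at or near 0 for PTPRC (a leukocyte gene), KRT5 and KRT14 (squamous epithelium) and DCN (fibroblast), each with at most 4 counts in a library. Others were present in both groups: the endothelial genes PECAM1 (64.1 and 43.7 CPM) and CDH5 (8.97 and 5.47 CPM), the fibroblast gene COL1A1 (282 and 357 CPM), the macrophage gene CD68 with 8 to 24 counts, and the liver and yolk sac genes ALB with 2 to 68 and AFP with 6 to 38 counts. Their part in the results below was not tested, and fewer cells of a type cannot be told apart from less RNA per cell.

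The level of a LINC RNA is given as CPM scaled by the trimmed mean of M-values (TMM), a correction for library composition. The median member stood at 2.01 CPM; 58 lay under 1 CPM, 99 between 1 and 10 CPM, and 36 above 10 CPM. The 193 together took 0.112% to 0.125% of all counts. The 8 highest, LINC01578, LINC00641, LINC00342, LINC00667, LINC00665, LINC00205, LINC02693 and LINC01128, held 27.8% of the summed CPM. Per kilobase of exon, LINC00342 was the highest at 15.4 CPM per kb, followed by LINC01578 at 12 and LINC00641 at 9.35. The median was 1.03 CPM per kb for the members and 5.47 for the 13501 tested protein-coding genes.

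By symbol, 169 members (87.6%) matched 1 gene of GENCODE release 29 on GRCh38, the source of the gene coordinates and structures given here. It classes 131 of them as lincRNA, 15 as processed transcript, 12 as antisense, 7 as transcribed unprocessed pseudogene, 2 as bidirectional promoter lncRNA, 1 as transcribed unitary pseudogene and 1, LINC00672, as protein-coding. Their median exonic length was 2879 bases (375 to 28876), against 5094 bases in tested coding genes, and their median number of exons was 4 against 10, with 18 members of a single exon. Exons of 50 members overlapped those of a gene on the other strand and exons of 28 overlapped a further gene on their own strand, 66 members in all. Whether counting used strand is not given in the sources used here, so reads of such pairs may be shared between them.

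After SOX2 siRNA, 41 of the 193 members (21.2%) differed at an adjusted p under 0.05, where 28.2% of all tested genes did. Of these, 12 were higher (6.22%, against 14.8% of all tested genes) and 29 were lower (15.0%, against 13.4%). Most changes were small: 37 of the 41 were under 2-fold, 1 member was at least 2-fold higher (0.518%, against 1.57% of all tested genes) and 3 were at least 2-fold lower (1.55%, against 1.59%). LINC01213, LINC00994 and LINC01411 of these 4 reached 0.5 CPM only through the group in which they were high, so the 2-fold counts support nothing beyond a description. With both group means at or above 0.5 CPM, 0 members were at least 2-fold higher in the edgeR fit (also 0 at an unadjusted p under 0.05) and 1, LINC00345, was at least 2-fold lower. The groups did not overlap in 70 members (36.3%), where 41.8% of all tested genes did not overlap, and 40 of the 41 called members were among the 70. LINC00869 was the exception, with 1 SOX2 siRNA library inside the control range (adjusted p = 0.048, and 0.0718 to 0.216 when any library other than SOX2 siRNA replicate 1 was left out). Leaving out 1 library at a time moved the number of lower members between 16 (without control replicate 2) and 43 (without SOX2 siRNA replicate 1), with 19 without SOX2 siRNA replicate 2, and that of higher members between 9 and 11. Of the 41 members, 20 passed in each of these 6 fits, 7 higher and 13 lower.

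**Figure D1:**
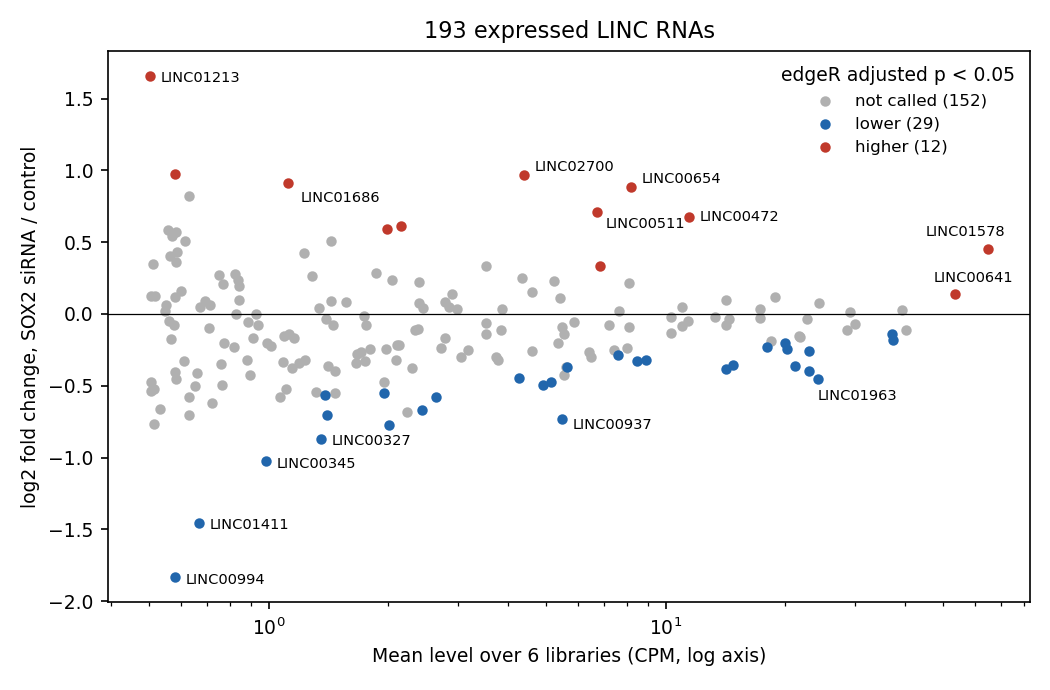
Each point is 1 of the 193 members, with its mean level over the 6 libraries (CPM, log axis) against its log2 fold change (SOX2 siRNA over control), coloured by the edgeR call. LINC01213 is the highest point at 1.66 and LINC00994 the lowest at -1.83, both at low level, while among members above 10 CPM the points lie closer to 0 and 11 are called lower.

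The median log2 fold change of the 193 members was -0.13, against -0.00084 over all tested genes, more of which were abundant. From 0.5 to 2 CPM the medians of members and of all tested genes were -0.16 and -0.053. They were -0.14 and -0.027 from 2 to 10 CPM, and -0.081 and 0.014 from 10 CPM upward. A value below 0 was found in 126 members (65.3%) and in 50.2% of tested genes, and the quartiles of the members were -0.34 and 0.086. Among the 173 members with both group means at or above 0.5 CPM, 10 were higher and 27 lower, and the median was -0.14. Summed over the members, the level was 1207, 1253 and 1204 CPM for control and 1205, 1155 and 1133 CPM for SOX2 siRNA libraries in order of replicate, or 1221 ± 27.4 and 1164 ± 37.2 CPM (SD, n = 3). The sum in SOX2 siRNA replicate 1 lay inside the control range. Within the SOX2 siRNA group the median member departed from the control mean by -0.040, -0.15 and -0.20 on the log2 scale (pseudocount 0.1 CPM) in replicates 1, 2 and 3, so that replicate 1 stood nearest to the controls. The part of these library differences in the counts above was not tested.

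Calls were more frequent among abundant members, as they were among all genes. Between 0.5 and 2 CPM, 11.5% of 96 members were called, against 12.3% of 2996 tested genes. From 2 to 10 CPM the share was 26.2% of 61 members and 26.2% of 3146 genes. From 10 CPM upward it was 38.9% of 36 members and 35.9% of 10175 genes. In that highest class 11 members were lower and 3 higher (30.6% and 8.33%), whereas 16.1% of all genes of that level were lower and 19.7% higher. These shares describe the classes, and their difference was not tested.

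**Figure D2:**
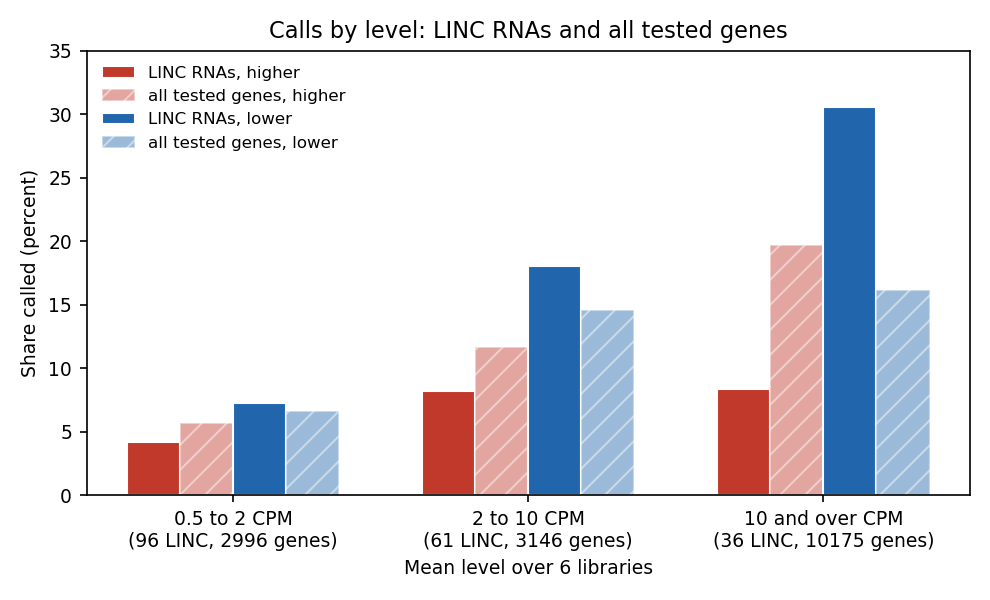
Bars give the percentage of LINC RNAs (solid) and of all tested genes (hatched) called higher (red) or lower (blue) after SOX2 siRNA, in 3 classes of mean level. At 10 CPM and over, 30.6% of the 36 members were lower and 8.33% higher, against 16.1% and 19.7% of 10175 genes. In the other classes the shares lay nearer to those of all genes.

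Promoter sequences were examined because SOX2 binds DNA at variants of a short motif, often next to an octamer bound by POU5F1. RefSeq windows on GRCh38.p14, from 250 bases before to 50 after an annotated start, were at hand for 123 members, 29 of them called. Windows of the members had a median GC content of 57.3% and an observed to expected CpG ratio of 0.54, against 65.3% and 0.83 in 10713 tested coding genes. The SOX motifs CATTGTT and CTTTGTT and the octamer ATGCAAAT were searched on both strands, each counted on its own. CATTGTT was found in 2 of 123 members (1.63%), none of them called, and in 4.08% of all 27305 genes with a window. CTTTGTT was found in 6 members (4.88%) and 6.35% of all genes, and ATGCAAAT in 2 members (1.63%) and 2.19% of all genes. A gene can have several windows, and the shares were also taken over 142 member windows and all 35116 windows. They were 1.41% and 3.33% for CATTGTT, 4.93% and 5.20% for CTTTGTT, and 2.11% and 1.77% for ATGCAAAT, the last in reverse order. Among the 29 called members 1 held CTTTGTT (LINC00327) and 1 held ATGCAAAT (LINC00641). A match is a match of letters only, and sites outside these windows were not searched.

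The windows of those 2 members are printed because they hold the motifs, in capitals. In LINC00327 (chr13:23469262-23469561, plus strand) CTTTGTT begins at position -216 from the RefSeq start, which lies inside the GENCODE gene and not at its first base. In LINC00641 (chr14:21206851-21207150, minus strand) ATGCAAAT begins at position -22, and a second annotated start of the same gene has one at position -128.
LINC00327: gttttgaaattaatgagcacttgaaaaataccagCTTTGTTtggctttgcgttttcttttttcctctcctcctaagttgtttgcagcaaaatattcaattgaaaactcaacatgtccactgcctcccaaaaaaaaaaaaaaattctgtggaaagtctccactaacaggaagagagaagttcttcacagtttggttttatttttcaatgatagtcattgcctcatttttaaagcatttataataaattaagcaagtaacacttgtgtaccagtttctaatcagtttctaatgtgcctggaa
LINC00641: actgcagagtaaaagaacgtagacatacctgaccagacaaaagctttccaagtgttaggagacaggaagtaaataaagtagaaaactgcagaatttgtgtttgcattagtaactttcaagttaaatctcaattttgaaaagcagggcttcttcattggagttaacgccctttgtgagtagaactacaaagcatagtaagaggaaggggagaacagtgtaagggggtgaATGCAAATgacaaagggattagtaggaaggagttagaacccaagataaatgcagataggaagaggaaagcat
The windows of LINC01213 (chr3:150238269-150238568, plus strand) and LINC00994 (chr3:64087314-64087613, minus strand), the members with the largest rise and the largest fall, are shown for comparison and have none of the 3 motifs.
LINC01213: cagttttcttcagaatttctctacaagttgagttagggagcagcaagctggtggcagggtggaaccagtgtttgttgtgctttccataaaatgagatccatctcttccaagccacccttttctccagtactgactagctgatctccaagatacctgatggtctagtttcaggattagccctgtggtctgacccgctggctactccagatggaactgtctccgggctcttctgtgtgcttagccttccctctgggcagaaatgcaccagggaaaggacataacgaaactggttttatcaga
LINC00994: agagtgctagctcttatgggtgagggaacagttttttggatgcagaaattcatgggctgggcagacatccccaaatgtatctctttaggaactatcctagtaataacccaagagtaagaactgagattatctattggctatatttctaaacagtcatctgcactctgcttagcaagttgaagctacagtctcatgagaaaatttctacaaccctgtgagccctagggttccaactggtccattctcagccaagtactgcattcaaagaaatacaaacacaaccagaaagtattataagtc

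Of the members that rose, LINC01578 was the most abundant. It is also known as CHASERR, lies upstream of the chromatin remodeller gene CHD2 (GRCh38, chr15:92882707-92899701, plus strand) and is known as a repressor of CHD2 in cis. Its levels were 52.3, 52.9 and 59.0 CPM in control and 75.7, 74.3 and 74.7 CPM in SOX2 siRNA libraries. The groups were well separated, with every SOX2 siRNA library above every control. The means were 54.7 ± 3.71 and 74.9 ± 0.718 CPM, a log2 fold change of 0.45 (SE 0.0482, edgeR adjusted p = 1.37e-06). CHD2 itself had a log2 fold change of 0.097 and did not pass the test (adjusted p = 0.184).

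LINC00472 is of interest because its span holds the hairpins of 2 microRNAs, MIR30C2 (chr6:71376960-71377031) and MIR30A (chr6:71403551-71403621), on the same minus strand (gene at chr6:71344344-71420769). Its exons overlap AL136164.2 on that strand. MicroRNAs pair with messenger RNAs mainly through their seed, bases 2 to 8, and the arms miR-30c-5p and miR-30a-5p share the seed GUAAACA, shown in capitals in these RefSeq mature sequences.
hsa-miR-30c-5p: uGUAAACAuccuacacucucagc
hsa-miR-30a-5p: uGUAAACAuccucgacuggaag
The arms from the other side of each hairpin have different seeds.
hsa-miR-30c-2-3p: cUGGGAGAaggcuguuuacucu
hsa-miR-30a-3p: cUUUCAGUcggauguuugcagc
LINC00472 was at 8.78, 8.41 and 9.23 CPM in control and 13.0, 14.4 and 14.9 CPM in SOX2 siRNA libraries, without overlap. The means were 8.81 ± 0.407 and 14.1 ± 0.964 CPM, and the log2 fold change was 0.68 (SE 0.0802, edgeR adjusted p = 4.81e-06). Libraries of messenger RNA do not measure mature microRNAs, so no level of miR-30 is given. Among members with a GENCODE position, the other one reported here with a hairpin on its strand was LINC01138, which holds MIR5087. Its log2 fold change was -0.25 and did not pass the test (edgeR adjusted p = 0.0905). Members without a GENCODE position could not be searched for hairpins, so other members may hold one.

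LINC00654 (chr20:5496067-5504613, minus strand) had the smallest p of all members. It stood at 5.60, 5.94 and 5.77 CPM in control and 10.8, 11.4 and 9.66 CPM in SOX2 siRNA libraries. The lowest SOX2 siRNA library was far above the highest control. From means of 5.77 ± 0.171 and 10.6 ± 0.878 CPM, the log2 fold change was 0.88 (SE 0.0934, edgeR adjusted p = 1.32e-06). An exon of AL109935.2 overlaps it on the other strand. GPCPD1, a glycerophosphocholine phosphodiesterase gene and the nearest coding gene at 39.8 kb, rose as well, by 0.64 (adjusted p = 9.02e-09).

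LINC02700, whose symbol did not match 1 gene of GENCODE 29, stood at 3.06, 2.43 and 3.42 CPM in control libraries. In SOX2 siRNA libraries it was at 6.25, 5.16 and 6.09 CPM. The groups did not overlap (2.97 ± 0.50 and 5.83 ± 0.589 CPM; a log2 fold change of 0.97 with SE 0.141, edgeR adjusted p = 5.08e-05). LINC00511 (chr17:72290091-72640472, minus strand) lies on the SOX9 side of chromosome 17 and has been described as raised in several tumours. It was at 5.33, 4.86 and 5.08 CPM in control and 7.38, 9.70 and 7.96 CPM in SOX2 siRNA libraries, again without overlap (log2 fold change 0.71, SE 0.113, edgeR adjusted p = 1.23e-04).

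The largest increase belonged to a scarce RNA, LINC01213 (chr3:150238519-150240209, plus strand), with 8, 4 and 9 counts in control and 23, 25 and 23 in SOX2 siRNA libraries. In CPM these were 0.242, 0.160 and 0.311 against 0.761, 0.772 and 0.769, a log2 fold change of 1.66 (SE 0.333, edgeR adjusted p = 0.00109). With a control mean of 0.238 CPM, it is a member only through the SOX2 siRNA libraries, where it was high, and its rise is a description. LINC01686 (chr1:182615254-182616629, plus strand) stood at 0.878, 0.638 and 0.795 CPM in control and 1.75, 1.33 and 1.30 CPM in SOX2 siRNA libraries. Both RNAs were higher in every SOX2 siRNA library than in any control. The log2 fold change of LINC01686 was 0.91 (SE 0.238, edgeR adjusted p = 0.00805), and RGS16, a regulator of G-protein signalling 10.8 kb away on the opposite strand, rose by 1.72, from 9.22 ± 1.15 to 30.7 ± 2.14 CPM.

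The remaining 5 members that rose lost their call when some single library was left out. LINC01571 (chr16:51762519-51773173) had a log2 fold change of 0.97 (edgeR adjusted p = 0.0237), and its adjusted p was 0.0551, 0.121, 0.0681 and 0.0919 without SOX2 siRNA replicates 2 and 3 and control replicates 1 and 2. LINC00886 had 0.61 (adjusted p = 0.015), with 0.0724 without SOX2 siRNA replicate 3 and 0.0652 without control replicate 1. LINC01560 had 0.59 (adjusted p = 0.0178), with 0.0652 without SOX2 siRNA replicate 1 and 0.0625 without control replicate 2. LINC00641 is the second most abundant member (chr14:21200079-21206900, minus strand). Its levels were 49.5, 53.0 and 50.3 CPM in control and 53.4, 56.7 and 57.7 CPM in SOX2 siRNA libraries, so the groups barely separated. The log2 fold change was 0.14 (SE 0.0471, edgeR adjusted p = 0.0394), and the adjusted p was between 0.115 and 0.151 without SOX2 siRNA replicates 2 or 3 or control replicates 1 or 3. The fifth was LINC01521, with 0.34 (adjusted p = 0.0136, and 0.061 without control replicate 3).

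**Figure D3:**
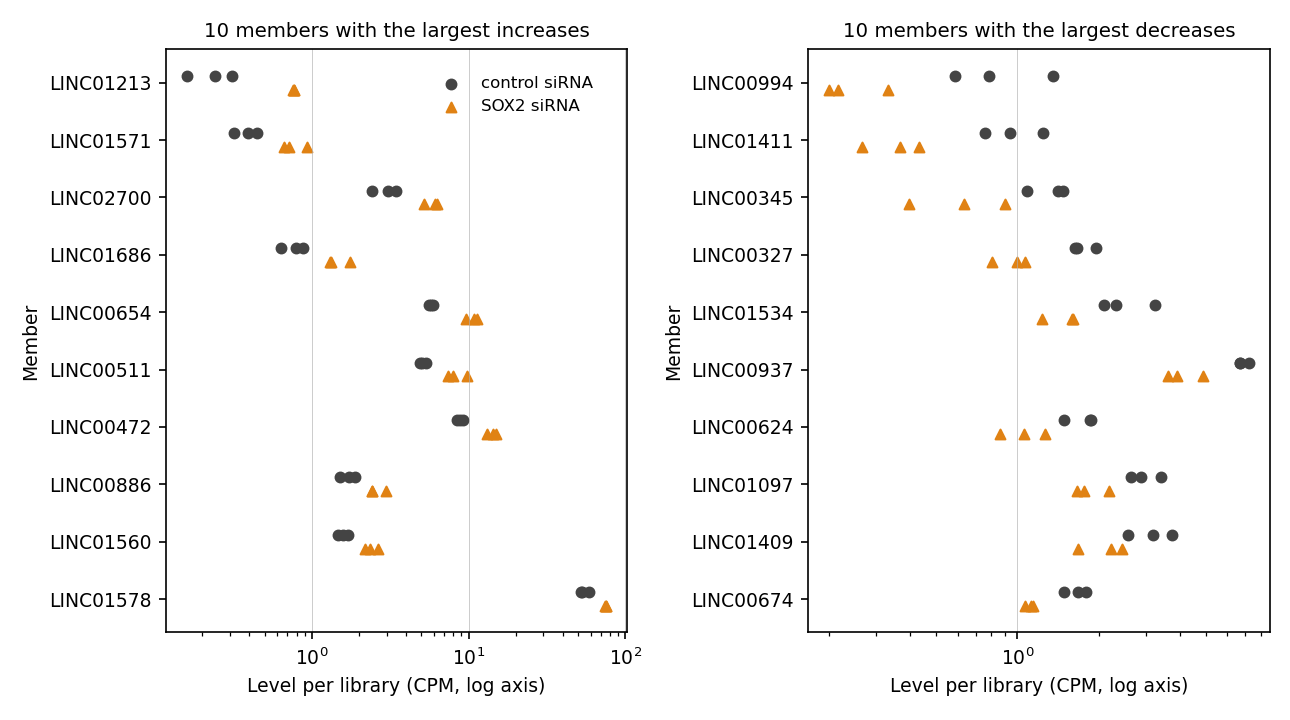
Levels in each library (CPM, log axis) of the 10 members with the largest called increases (left) and the 10 with the largest called decreases (right); circles are control and triangles SOX2 siRNA libraries. The groups do not overlap in any of the 20; the separation is wide for LINC00654 (5.60 to 5.94 against 9.66 to 11.4 CPM) and narrow for LINC01409 (2.57 to 3.73 against 1.67 to 2.45 CPM).

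The 3 members that fell at least 2-fold were all scarce, and LINC00994 and LINC01411 are members only through the control libraries, where they were high. LINC00994 (chr3:64078361-64087363, minus strand) had 26, 34 and 17 counts in control and 10, 7 and 6 in SOX2 siRNA libraries, or 0.787, 1.36 and 0.587 against 0.331, 0.216 and 0.201 CPM. Control replicate 2 was the highest, and no SOX2 siRNA library reached the lowest control. The log2 fold change was -1.83 (SE 0.379, edgeR adjusted p = 0.00136). LINC01411 (chr5:174336295-174532457, plus strand) was at 0.938, 0.758 and 1.24 CPM in control and 0.265, 0.433 and 0.368 CPM in SOX2 siRNA libraries, without overlap (log2 fold change -1.46, SE 0.311, edgeR adjusted p = 0.00183). LINC00345 (chr13:52482804-52489216, minus strand) was at 1.09, 1.48 and 1.42 against 0.397, 0.896 and 0.635 CPM. Its log2 fold change of -1.03 (SE 0.286, edgeR adjusted p = 0.012) did not pass without control replicate 2 (adjusted p = 0.0603) or control replicate 3 (0.0511).

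LINC00937 (chr12:8295986-8396803) and LINC01963 (chr2:216217045-216220192) fell without overlap of the groups. LINC00937 stood at 7.20, 6.66 and 6.67 CPM in control and 3.90, 3.61 and 4.88 CPM in SOX2 siRNA libraries. Its lowest control lay well above its highest SOX2 siRNA library (log2 fold change -0.73, SE 0.122, edgeR adjusted p = 2.02e-04), and its exons overlap those of other genes on its strand. LINC01963 was at 27.5, 29.8 and 26.5 CPM in control and 19.3, 20.4 and 21.5 CPM in SOX2 siRNA libraries. That is 28.0 ± 1.69 and 20.4 ± 1.10 CPM, and the log2 fold change was -0.45 (SE 0.0626, edgeR adjusted p = 2.92e-05).

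Among the abundant members, above 10 CPM, the falls were shallow. Besides LINC01963, 5 members had log2 fold changes between -0.40 and -0.26: LINC01748 (-0.40), LINC01224 (-0.38), LINC00467 (-0.36), LINC00649 (-0.36) and LINC00174 (-0.26), and all 5 passed in every fit that left out 1 library. LINC01515 (-0.23) and LINC00665 (-0.18, from 39.6 ± 1.67 to 34.9 ± 0.177 CPM, edgeR adjusted p = 0.00951) did so too. LINC00648 had -0.25 (edgeR adjusted p = 0.0088, and 0.0556 without control replicate 2). LINC00205 had -0.14 (adjusted p = 0.0399), with adjusted p from 0.0522 to 0.167 in 5 of the 6 fits that left out 1 library, those without SOX2 siRNA replicates 2 or 3 or without any 1 control.

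LINC00632 is known as the precursor of the circular RNA CDR1-AS, a binder of miR-7, and is antisense to CDR1. Its mean was 21.4 ± 1.55 CPM without and 18.6 ± 0.870 CPM with SOX2 siRNA. The log2 fold change of -0.20 passed the test (edgeR adjusted p = 0.0319) and was lost without SOX2 siRNA replicates 2 (adjusted p = 0.0723) or 3 (0.109) and without control replicates 1 (0.0996) or 2 (0.139). Libraries of polyadenylated RNA capture the linear transcript, and a circular product without a tail is not expected among these counts.

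The other members among the 10 largest falls were LINC00327, LINC01534, LINC00624, LINC01097, LINC01409 and LINC00674, with log2 fold changes from -0.87 to -0.56. LINC00327 (chr13:23466571-23487464, plus strand) was at 1.63, 1.95 and 1.66 CPM in control and 0.993, 0.803 and 1.07 CPM in SOX2 siRNA libraries, without overlap. This RNA, whose window holds CTTTGTT, kept its call whichever library was left out (-0.87, SE 0.213, edgeR adjusted p = 0.00528). The other 5 did not: LINC01534 (-0.77, adjusted p = 0.00899) had an adjusted p of 0.0736 without control replicate 2. LINC01097 (-0.67, adjusted p = 0.00751), 6.5 kb from NKX3-2, a homeobox gene of skeletal development, had 0.0537 without control replicate 1. LINC00624 (-0.71, adjusted p = 0.0223), antisense to the chromatin remodeller gene CHD1L, had 0.114 without SOX2 siRNA replicate 2 and 0.0858 and 0.0879 without control replicates 2 and 3. LINC01409 (-0.58, adjusted p = 0.0267) had 0.0562 to 0.153 without SOX2 siRNA replicates 2 or 3 or control replicates 2 or 3. LINC00674 (-0.56, adjusted p = 0.0461) had 0.0541 to 0.158 without any 1 of the 6 libraries.

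A total of 152 members did not pass the test, among them 4 of the 8 most abundant. LINC00667 was at 39.0, 40.4 and 38.1 CPM in control and 39.8, 40.7 and 38.9 CPM in SOX2 siRNA libraries, with the groups interleaved. Its log2 fold change was 0.025 with an SE of 0.0475 (edgeR adjusted p = 0.753). LINC00342 had -0.11 (adjusted p = 0.422), LINC02693 -0.071 (0.364) and LINC01128 0.013 (0.896), all with overlapping groups. Precision was lower at the low end: the median SE was 0.278 on the log2 scale between 0.5 and 2 CPM and 0.0683 from 10 CPM upward, and 19 uncalled members had log2 fold changes beyond 0.5 in size. LINC00310, near the threshold of abundance, is an example (-0.54, SE 0.315, edgeR adjusted p = 0.232). LINC01137, also near it, had 0.13 (adjusted p = 0.842).

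Of the 193, 3 differed more than 3-fold between the highest and the lowest replicate of a group, where the median ratio was 1.23 in control and 1.30 in SOX2 siRNA libraries. LINC00261 (chr20:22547671-22578642, minus strand), which lies beside the endoderm transcription factor gene FOXA2 and is known from definitive endoderm, had 138, 66 and 15 counts in control and 133, 11 and 65 in SOX2 siRNA libraries. LINC00607 had 42, 19 and 7 against 49, 6 and 28 counts. In both RNAs replicate 1 was the highest of each group, and the lowest libraries were control replicate 3 and SOX2 siRNA replicate 2. Neither passed the test: LINC00261 had a log2 fold change of -0.11 with an SE of 1.11 (edgeR adjusted p = 0.961) and LINC00607 one of 0.24 (adjusted p = 0.892). In CPM, LINC00261 was at 4.18, 2.63 and 0.518 in control and 4.40, 0.340 and 2.17 in SOX2 siRNA libraries. Coding genes with the same order of libraries within each group, chosen after their values were seen, were TSPAN8 and ALB. TSPAN8, a membrane tetraspanin, was at 6.05, 3.87 and 0.484 against 5.96, 0.371 and 3.08 CPM. ALB, or albumin, was at 2.06, 0.877 and 0.104 against 1.89, 0.0618 and 0.936 CPM. FOXA2 had 13, 2 and 1 against 13, 1 and 9 counts and was too low to be tested. The part of other cell types or of the library in this pattern was not tested. The third, LINC01473, had 26, 17 and 15 against 25, 32 and 7 counts.

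**Figure D4:**
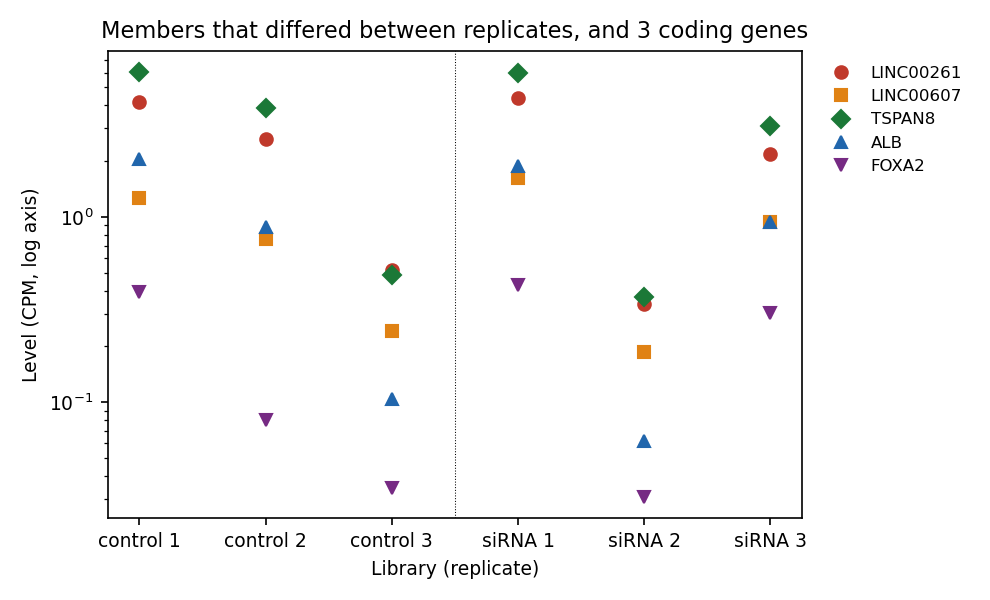
Levels (CPM, log axis) in each of the 6 libraries of LINC00261, LINC00607 and the coding genes TSPAN8, ALB and FOXA2; the dotted line parts control from SOX2 siRNA libraries. In all 5 genes control replicate 3 and SOX2 siRNA replicate 2 are the lowest of their groups, as for LINC00261 at 0.518 and 0.340 CPM.

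Position relative to coding genes was a feature that the choice of members did not use. Of the 169 placed members, 30 overlapped the span of a coding gene, 114 lay within 50 kb of one, and the median gap was 16.5 kb. For 123 the nearest coding gene was tested, and 40 of these neighbours (32.5%) were called, against 30.2% of the nearest coding neighbours of tested coding genes. Member and neighbour were both called in 10 pairs, 5 in the same direction (50%); among pairs of coding genes the same count was 741 of 1128 (65.7%). Within 50 kb the directions were the same in 5 of 7 pairs (71.4%), against 637 of 954 pairs of coding genes (66.8%), the reverse order. The pairs are few, and whether the share depends on distance was not tested. Among the pairs that fell together was LINC00467 with TRAF5, a signalling adaptor gene 7.86 kb away (-0.36 and -0.53). Those that rose together were LINC00654 with GPCPD1, LINC01686 with RGS16 and LINC01521 with PATZ1. In the other 5 pairs the directions were opposite, as for LINC01152 (-0.44, edgeR adjusted p = 0.0231), whose nearest coding gene at 79.7 kb is the SOX family gene SOX9 (0.53, adjusted p = 3.59e-08). The call of LINC01152 was lost without SOX2 siRNA replicates 2 (adjusted p = 0.113) or 3 (0.0702) and without control replicates 1 (0.0752) or 2 (0.0889).

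A pair of further cases, singled out after their values were seen, paired a neighbour showing a large change with a member that did not pass the test. EOMES, a T-box gene of mesendoderm, rose by 2.92 from 4.57 ± 0.329 to 34.5 ± 2.14 CPM, while LINC01980, whose nearest coding gene it is at 74.9 kb, was at 7.56 ± 0.448 and 7.70 ± 0.485 CPM (log2 fold change 0.023, edgeR adjusted p = 0.893). ZFP36L2, an RNA-binding protein gene, rose by 0.73 (adjusted p = 3.03e-08), while LINC01126, which starts 601 bases away in the other direction, had a log2 fold change of -0.00078 (adjusted p = 0.999). LINC01126 was scarce, with 32, 17 and 24 counts in control and 31, 29 and 17 in SOX2 siRNA libraries. Its value is therefore imprecise: the median SE of members between 0.5 and 2 CPM was 0.278. Coding-gene starts on the opposite strand within 1 kb were counted whether the genes point apart or overlap, as LINC00649 and ATP5PO do. In all, 19 members had such a start. Of these, 5 were called (26.3%, near the 21.2% of all members and the 28.2% of all tested genes): LINC01521 (PATZ1) and LINC01560 (ZNF41) were higher, and LINC00205 (POFUT2), LINC00649 (ATP5PO) and LINC01534 (ZNF567) were lower. POFUT2, a protein O-fucosyltransferase gene 152 bases from LINC00205, went the other way (0.25, adjusted p = 0.00172), PATZ1 rose with LINC01521 (0.14, adjusted p = 0.0188), and ATP5PO, ZNF41 and ZNF567 did not pass the test.

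**Figure D5:**
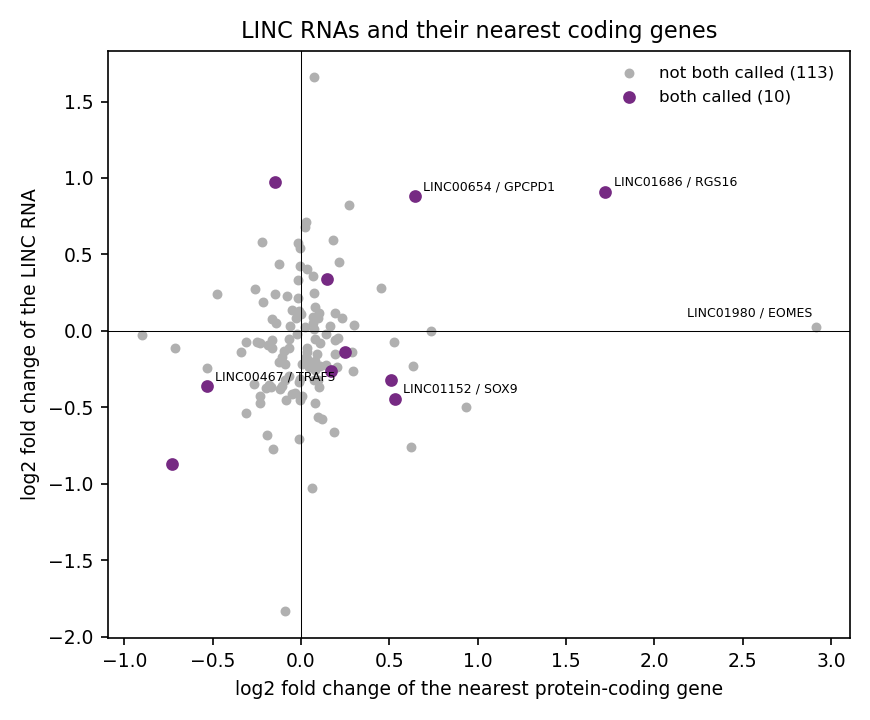
Log2 fold change of 123 members against that of the nearest protein-coding gene, which was tested in each; the 10 pairs with both called are purple. LINC01686 with RGS16 (0.91 and 1.72) and LINC00467 with TRAF5 (-0.36 and -0.53) lie in the quadrants of equal direction, and LINC01980 lies near 0 where EOMES is at 2.92.

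Long non-coding RNAs with other kinds of symbol were set beside the members from a list of 39. Of these, 37 were in the table and 31 tested. In the test 4 were higher, 9 lower and 18 not called, and 5 of the called ones changed at least 2-fold. Of all tested genes 28.2% were called, 1.57% at least 2-fold higher and 1.59% at least 2-fold lower. The list was picked by name, and its difference from the members was not tested. SOX2-OT, in whose intron SOX2 lies, was at 4.99, 6.06 and 5.49 CPM in control and 2.91, 2.10 and 2.81 CPM in SOX2 siRNA libraries (log2 fold change -1.08, edgeR adjusted p = 2.51e-05). H19, an imprinted RNA of fetal tissue, went from 42.0, 38.9 and 38.6 to 159, 153 and 150 CPM (1.95, adjusted p = 2.28e-15). In both the groups were far apart. RMST, a neural RNA known to bind SOX2 protein, was at 5.18, 4.94 and 4.98 against 1.82, 1.48 and 1.34 CPM (-1.70, edgeR adjusted p = 1.71e-07). MIR302CHG, the host of the pluripotency microRNA cluster miR-302, fell by 0.55 (adjusted p = 1.95e-07), and MIR17HG, the host of the miR-17-92 cluster, rose by 0.57 (adjusted p = 1.06e-05). The median of the 31 was -0.077, beside -0.13 for the 193 LINC RNAs.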

How the data were processed

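Reads of 6 mRNA libraries were counted per gene symbol by the authors, who deposited raw counts in 1 table. The submitters' processing notes name bcl2fastq 2.20.0, STAR 2.7.3a, Salmon 0.14.1, DESeq2 1.28.1 and GRCh38.p13; their roles, the use of strand and the annotation release are not given in the sources used here. The labels' protocols name Trizol extraction and a KAPA mRNA HyperPrep kit. Columns were matched to libraries by the identifier in each description, and groups come from the treatment label.

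Counts were tested on the whole table with edgeR 4.0.16 (R 4.3.3): filterByExpr with a minimum count of 10, TMM, glmQLFit with robust=TRUE, glmQLFTest on group, Benjamini-Hochberg adjustment over 17592 genes, threshold 0.05. CPM use TMM-scaled library sizes. The procedure was also run on counts simulated from its own fit with known changes. Such counts hold no effects of library or batch, so that run cannot show them. Tables were made with Python 3.11.15 and pandas 2.3.3. Gene models are GENCODE 29, which need not be the authors' annotation; promoter and microRNA sequences are RefSeq.

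The members and lists were chosen with earlier results of these data known. Named are SOX2 and, among members, the 8 highest in CPM, the 10 called with the highest and the 10 with the lowest fold change, the 6 smallest p, those whose nearest coding gene was called at least 2-fold, those next to the threshold, and 3 with a known role (LINC00511, LINC00632 and LINC00261); others illustrate a position or a level. Some LINC symbols are not reported here. Alternatives were other scalings and filters, DESeq2 1.42.0, limma-voom (limma 3.58.1), robust=FALSE, glmTreat, other CPM thresholds, a replicate block and each library left out in turn.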

Additional observations from a re-analysis of the deposited data

How the results depend on the processing

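With DESeq2's Wald test 7 members were called higher and 18 lower, all among the 41 called by edgeR. Leaving out 1 library gave 9 to 11 higher and 16 to 43 lower members, 1 to 3 at least 2-fold higher and 2 to 4 at least 2-fold lower. The 2-fold counts, 1 higher and 3 lower, became 0 and 1 with at least 10 counts in every library, 2 and 6 over LINC symbols of at least 0.25 CPM, and 0 and 0 over those of at least 1 CPM. Over the latter, edgeR, DESeq2 and limma-voom also gave 0 at an unadjusted p under 0.05. In their place, glmTreat against a 1.5-fold change called 2 higher and 1 lower. With at least 10 counts in every library the number higher was 0 by the same 3 tools at an unadjusted p as well.

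Upper-quartile scaling moved the median of all genes to -0.021 and called 11 higher and 33 lower members. Among the named members, the only ones recomputed singly, direction reversed in 3, all uncalled: LINC01128 (-0.0073 with upper-quartile scaling and -0.0099 to 0.040 with 1 library left out), LINC01137 (-0.19 to 0.35 with 1 library left out) and LINC00261 (-0.99 to 0.57 with 1 library left out). The cause was not tested.

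With the replicate number as a block, 12 members were higher and 30 lower, 39 of the 42 shared with the 41. Same-numbered libraries had correlations of deviations of 0.087, -0.038 and -0.031, and those of unlike number had -0.12 to 0.15. These values cannot decide whether same-numbered libraries shared a culture or a batch, and the labels do not say. Depth limits the 58 members under 1 CPM most.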

Other observations

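Below the threshold of 0.5 CPM, 38 further LINC symbols had enough counts to be tested, and 4 of them (10.5%) passed in the edgeR fit. Of all tested genes 28.2% passed, and of those between 0.5 and 2 CPM 12.3%. LINC02723 was higher after SOX2 siRNA (log2 fold change 1.66), and LINC00391 (-2.51), LINC02814 (-1.79) and LINC02036 (-1.05) were lower. All 4 passed the count filter mainly through the group in which they were high, so their fold changes are a description. LINC00391 had 12, 13 and 14 counts in control and 0, 2 and 5 in SOX2 siRNA libraries. These 4 are named because they are all that passed.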
